A study of Mus musculus with 18 samples.

Results

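RNA of the mouse caput epididymis was compared between males given 6% ethanol (EtOH) and controls at 10 weeks. The comparison takes the 3 libraries whose treatment label is 6% EtOH and the 3 labelled Control, which are 6 of the 18 libraries of the series. All tissue came from the C57BL/6J strain, a wild-type inbred line, and the labels name no other allele or agent. The 10% EtOH group of 10 weeks, and the control and 6% EtOH groups after exposure had ended (cessation), each with 3 libraries, are used only where the response is set against them. The sources used here do not give the age of the mice, the route of exposure or the number of animals in a library, so p-values measure the spread between libraries, which may be technical.

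The caput is the first large segment of the epididymis, the duct in which sperm leaving the testis mature. Its principal cells secrete antimicrobial beta-defensins, protease inhibitors, lipocalins and the glutathione peroxidase Gpx5 into the lumen, and release vesicles that carry small RNAs to sperm. The title of the study concerns sperm noncoding RNA and mitochondrial dysfunction of the epididymis, so genes of the respiratory chain, of small RNA biogenesis and of vesicles were described beside the secretory genes. Ethanol is oxidised by alcohol and aldehyde dehydrogenases, and its breakdown can raise oxidative load in mitochondria.

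Each library held between 15599991 and 19408091 reads counted in genes. Levels are given as CPM, counts relative to the library total, after scaling by the trimmed mean of M values (TMM), whose factors lay between 0.966 and 1.04, and differences as log2 fold changes of 6% EtOH minus control with their standard error (SE). The lumenal products that define the caput were high in all 6 libraries, with Gpx5 as the most abundant gene, while the seminal vesicle genes Svs2 and Svs4 and the prostate gene Pbsn did not reach the count minimum. The first principal component of the 6 libraries held 36.0% of the variance. On it the controls scored -11.9, -6.50 and -24.4 and the 6% EtOH libraries -11.0, 23.8 and 29.9, so 6% EtOH replicate 1 lay among the controls and replicates 2 and 3 apart from them. No pair of libraries agreed within sampling noise, and all 6 were kept. Results that rest on replicate 1 are given with and without it.

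Of 16417 genes tested, 26 passed an adjusted p of 0.05 by edgeR's quasi-likelihood test, 0.158% of all genes. They comprised 25 rises (0.152%) and 1 fall (0.00609%). Before adjustment, p was under 0.05 for 2322 genes (14.1%), 1257 higher (7.66%) and 1065 lower (6.49%). The levels of the 3 treated and the 3 control libraries did not overlap for 3244 genes (19.8%), 1667 on the higher side (10.2%) and 1577 on the lower (9.61%). The median log2 fold change of all genes was -0.01, and 8043 of the 16417 genes (49%) lay above 0. Fold changes were small, with 90% of genes between -0.60 and 0.47. The genes that rose include members of spliceosomal RNA, the ribosome, the inner mitochondrial membrane, the entry of proteins into the endoplasmic reticulum, and peroxide defence.

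The number of genes that passed depended on the libraries in the fit. When the spread was estimated from all 9 libraries of 10 weeks or from all 18, 0 genes passed. The 26 then had adjusted p of 0.0823 or more and of 1 (edgeR). All 26 kept their direction, but these fits compare the same 6 libraries. The within-group variation was 11.3% for controls and 14% for 6% EtOH, against 21.6% for 10% EtOH and 25.6% to 33.4% for the groups after cessation. Without 6% EtOH replicate 1, 724 genes passed, 348 higher (2.05%) and 376 lower (2.21%), with all 26 among them. That library was singled out by these same values, as the treated one that lay among the controls. Leaving it out therefore favours larger contrasts and a smaller spread. Counts and adjusted p of that fit, here and below, describe the dependence on that library and are no separate support. Without control replicate 1 or without 6% EtOH replicate 2 only U1 passed. U1 passed in each of the 6 fits that left out a library.

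**Figure D1:**
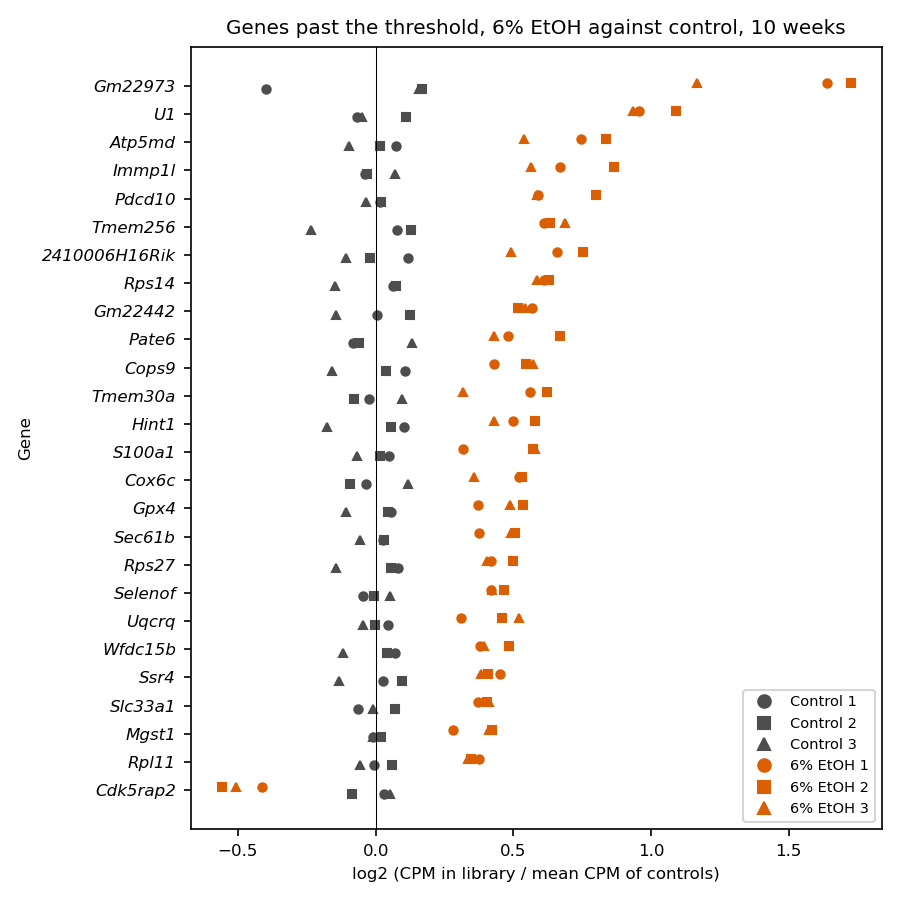
Level of each of the 26 genes that passed, in each of the 6 libraries, as log2 of its CPM over the mean CPM of the 3 controls (grey, control; orange, 6% EtOH; marker shape, replicate). Every orange symbol lies outside the range of the grey symbols of its gene, and Cdk5rap2 is the only gene with the orange symbols to the left.

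The 2 largest changes among the 26 were those of Gm22973 and U1, both small structured RNAs. U1 is the RNA core of the particle that recognises the start of an intron in splicing. Its level was 211.9, 240.0 and 215 CPM in the controls and 430.4, 472 and 424 CPM in the 6% EtOH libraries. All 3 treated libraries lay far above the controls, with no overlap. The rise was 0.99 ± 0.07 log2 (SE), the smallest adjusted p of the comparison (edgeR, 0.000105). U1 is an entry of the deposited tables without a match in the annotation used here, and U1 genes have near-identical copies, so the locus behind these reads is uncertain.

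A further pair of structured RNAs rose, and their sequences are printed because their names do not say what they are. That of Gm22973 holds letters of U2, and that of Gm22442 is given as the sequence of its annotated entry. Both are DNA-strand letters of the GENCODE transcripts on GRCm38. The capitals in the first mark GTAGTA, the letters with which U2 small nuclear RNA pairs to the intron branch point. The second has no part in capitals.
Gm22973: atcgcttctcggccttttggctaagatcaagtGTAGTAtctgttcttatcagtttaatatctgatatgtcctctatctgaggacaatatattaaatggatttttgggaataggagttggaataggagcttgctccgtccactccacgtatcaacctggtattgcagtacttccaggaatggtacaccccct
Gm22442: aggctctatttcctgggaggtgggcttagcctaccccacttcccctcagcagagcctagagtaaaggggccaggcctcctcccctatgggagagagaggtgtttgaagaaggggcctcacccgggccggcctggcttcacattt
Gm22973 is annotated as a small nuclear RNA of 191 bases at chr12:59040335-59040525 on the plus strand, with no gene overlapping it. Gm22442 is annotated as a small Cajal body RNA, the class that guides the chemical modification of spliceosomal RNAs. It has 144 bases at chr11:69350518-69350661 on the minus strand, within an intron of Chd3 and on the same strand.

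Gm22973 was low in controls, at 2.02, 2.99 and 2.97 CPM, and stood at 8.27, 8.78 and 5.97 CPM after 6% EtOH. Its lowest treated library was above its highest control, and the rise of 1.54 ± 0.24 log2 was the largest of the 26 (adjusted p = 0.0316, edgeR). Since U2 genes are repeated in the genome, reads may be shared among copies. Gm22442 stood at 71.8, 77.9 and 64.8 CPM in controls and at 106, 102 and 104 CPM after 6% EtOH. The treated libraries agreed closely with each other and did not overlap the controls, and the rise was 0.54 ± 0.07 log2 (adjusted p = 0.0262, edgeR). Reads of unspliced Chd3 cannot be told from those of Gm22442.

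Annotated small RNAs of these classes were mostly on the higher side, a set grouped by annotation after their values had been seen. Of 76 small nuclear, nucleolar, Cajal body and miscellaneous RNAs tested, which hold neither U1 nor 7SK because these have no class in the annotation, 65 were higher after 6% EtOH, 31 did not overlap on the higher side (40.8%, against 10.2% of all genes) and 2 on the lower. Their median log2 fold change was 0.61, and Gm22973 and Gm22442 passed. Only 21 of the 76 had a mean above 10 CPM, so many of these values rest on few counts. Gm22786, at 0.303, 0.387 and 0.571 CPM in controls and 1.07, 0.741 and 0.919 CPM after treatment, met the count minimum mainly through the treated libraries. It is not the only such member. For these the filter itself favoured a rise, and their number was not counted. By class, 45 of 53 nucleolar RNAs (snoRNAs), which guide the modification of ribosomal RNA, were higher, with a median of 0.57. Medians were 0.14 over 9 Cajal body RNAs, 0.71 over 10 miscellaneous RNAs and 1.05 over 4 small nuclear RNAs. Of 3 annotated microRNA genes tested, which are not among the 76, 0 were higher (median -0.80). Snord17 stood at 59.4, 70.3 and 49.8 CPM in controls and 109, 115 and 93.8 CPM after treatment without overlap, a difference of 0.83 ± 0.13 that did not pass (adjusted p = 0.0586, edgeR). Rnu12, the U12 RNA of the minor spliceosome, stood at 20.2, 22.5 and 13.2 CPM and at 60.5, 47.0 and 32.7 CPM, again without overlap (adjusted p = 0.157, edgeR). Outside the 76, 7SK, the abundant RNA that holds the elongation factor P-TEFb inactive, was 15547, 16000 and 15146 CPM in controls and 18718, 20549 and 20565 CPM in treated libraries, a difference of 0.36 ± 0.07 (adjusted p = 0.0746, edgeR).

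Control replicate 3 was low for several of these RNAs. For Rny3, one of the RNAs bound by the Ro protein, controls read 87.5, 95.6 and 35.5 CPM and treated libraries 138, 152 and 83.6 CPM. The third control was the lowest by far and the ranges overlapped (adjusted p = 0.552, edgeR). Scarna2, the most abundant of the 76 annotated RNAs, stood at 229, 242 and 243 CPM and 247, 246 and 273 CPM, and its difference was only 0.10 ± 0.06. Together the annotated RNAs of these classes, without U1 and 7SK, took 0.102% to 0.130% of counts in controls and 0.163% to 0.178% in the 6% EtOH libraries. Most snoRNAs lie in the introns of other genes, and the sources used here do not say whether counting used strand, so their reads and those of their hosts cannot be fully told apart.

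Ribosomal protein genes were shifted to the higher side by a small amount. Of 82 cytosolic ribosomal protein genes, 76 were higher, 43 did not overlap on the higher side (52.4%) and 0 on the lower, and 3 passed. Their median log2 fold change was 0.12, beside -0.01 for all genes. Rps14, a protein of the small subunit, stood at 608, 613 and 526 CPM in controls and 889, 900.3 and 875 CPM after 6% EtOH. The treated libraries lay close together and above every control. Rps14 rose by 0.61 ± 0.07 log2 (adjusted p = 0.00905, edgeR), far more than the median of its list. Rps27, a zinc-binding protein of the same subunit, rose by 0.44 ± 0.07 (adjusted p = 0.0316, edgeR), from 556, 546 and 476 to 703, 742 and 697 CPM. Rpl11, which joins the large subunit and also binds the p53 regulator Mdm2, rose by 0.35 ± 0.06 (adjusted p = 0.0362, edgeR). Other members did not pass: Rplp0, of the stalk, differed by 0.20 ± 0.06 (adjusted p = 0.187, edgeR) and Rpl3, of the large subunit core, by 0.03 ± 0.06. Reads of ribosomal protein genes can be shared with processed pseudogenes, so single values are uncertain. Without 6% EtOH replicate 1, 9 members rose and 0 fell, beside 2.05% and 2.21% of all genes in that fit. Without control replicate 3 the median was 0.07.

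The 5 respiratory complexes are built from subunits encoded in the nucleus, and from a few encoded in mitochondrial DNA. Nuclear subunits were mostly higher after 6% EtOH. In complex I, which takes electrons from NADH, 43 of 49 genes were higher with a median of 0.16, and 24 did not overlap on the higher side (49.0%) against 1 on the lower. In complexes II and III, 18 of 22 were higher (median 0.18), with 12 not overlapping on the higher side (54.5%, against 10.2% of all genes). In complex IV, which passes electrons to oxygen, 21 of 23 were higher (median 0.12), with 9 not overlapping on the higher side (39.1%). In ATP synthase, 19 of 20 were higher (median 0.13), with 10 not overlapping on the higher side (50%). Across these lists 3 subunits passed, and all 3 rose. Without 6% EtOH replicate 1, 9 subunits of complex I, 3 of complexes II and III, 1 of complex IV and 5 of ATP synthase rose, and 0 fell. In that fit 2.05% of all genes rose and 2.21% fell. Without control replicate 3 the median of ATP synthase was 0.09.

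Atp5md, a small membrane subunit of ATP synthase, stood at 53.2, 51.1 and 47.2 CPM in controls and 84.6, 90.1 and 73.4 CPM after treatment. The groups were well apart, although the treated libraries themselves varied more than the controls. It rose by 0.71 ± 0.09 log2 (adjusted p = 0.0163, edgeR). The large subunits of the same enzyme gave other values, with Atp5a1 at 0.04 ± 0.05 and Atp5b at 0.02 ± 0.05, neither past the threshold. Cox6c, a small regulatory subunit of complex IV, stood at 167, 160.3 and 185 CPM and 245, 247 and 219 CPM, with no overlap. It rose by 0.47 ± 0.07 (adjusted p = 0.0316, edgeR), while Cox4i1, the largest nuclear subunit, differed by 0.10 ± 0.07 with overlapping libraries. Uqcrq, a small subunit of complex III, rose by 0.43 ± 0.07 (adjusted p = 0.0427, edgeR), from 72.8, 70.5 and 68.3 to 87.3, 96.9 and 101.2 CPM. In complex I no gene passed, and the smallest p was that of the accessory subunit Ndufb1, at 0.46 ± 0.08 (adjusted p = 0.0571, edgeR).

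Other mitochondrial genes were less even. Of 77 mitochondrial ribosomal protein genes, 69 were higher, with a median of 0.13. On the higher side 32 did not overlap (41.6%, against 10.2% of all genes) and on the lower side 0. None passed, but 5 rose without 6% EtOH replicate 1, beside 2.05% of all genes in that fit. The median was 0.08 without control replicate 3. Immp1l, a subunit of the peptidase that trims proteins entering the intermembrane space, rose by 0.71 ± 0.10 (adjusted p = 0.0262, edgeR), from 19.3, 19.4 and 20.8 to 31.6, 36.1 and 29.3 CPM. Of 12 mitochondrially encoded genes tested, 11 were higher, with a median of 0.26, but only 1 without overlap. For mt-Co1, a catalytic subunit of complex IV, controls read 3332, 3100.1 and 4869 CPM and treated libraries 4392, 5224 and 3689 CPM. Control replicate 3 was as high as the treated libraries, and leaving out single libraries moved the list's median from 0.10 to 0.45.

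Other mitochondrial pathways had medians close to that of all genes. In the citric acid cycle 10 of 20 genes were higher (median 0.01), and citrate synthase, Cs, differed by -0.07 ± 0.07. In fatty acid oxidation 21 of 30 were higher (median 0.04), and Cpt1a, which admits fatty acids, differed by 0.11 ± 0.09. Among genes of mitochondrial fusion, fission and cristae, 23 of 35 were higher (median 0.04), with 11 not overlapping on the higher side (31.4%, against 10.2% of all genes) and 1 on the lower, and Mfn2, a fusion protein, differed by -0.16 ± 0.07. Ppargc1a, a coactivator of mitochondrial gene expression, stood at 6.31, 4.93 and 8.62 CPM and 5.33, 5.70 and 4.66 CPM, which overlapped. None of the genes of these lists passed. Without 6% EtOH replicate 1, 5 of the 35, 2 of the 30 and 1 of the 20 rose, and 0 fell. In that fit 2.05% of all genes rose and 2.21% fell.

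Genes of protein entry into the endoplasmic reticulum were among the 26. Sec61b, a subunit of the channel through which secreted proteins are threaded, stood at 85.6, 85.7 and 80.7 CPM in controls and 109, 119 and 118 CPM after 6% EtOH. It rose by 0.46 ± 0.06 (adjusted p = 0.0262, edgeR) and the groups did not overlap. Ssr4, of the complex beside that channel, rose by 0.41 ± 0.07 (adjusted p = 0.0362, edgeR). Selenof, a selenoprotein of the same compartment, rose by 0.44 ± 0.06 (adjusted p = 0.022, edgeR), and its control libraries, at 162, 167 and 173 CPM, were as close together as its treated ones, at 224, 231 and 224 CPM. Slc33a1, an acetyl-CoA transporter of its membrane, rose by 0.40 ± 0.07 (adjusted p = 0.044, edgeR).

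Regulators of the unfolded protein response did not pass. Of 33 genes of that list, which includes Sec61b, 25 were higher, but the median was 0.04. The chaperone Hspa5 stood at 2526, 2680.4 and 2616 CPM and 2818, 2956 and 2801 CPM, a difference of 0.13 ± 0.06 that did not pass (adjusted p = 0.342, edgeR). Xbp1, the factor that drives the response, differed by 0.11 ± 0.06, and Ddit3, which rises in prolonged stress, by -0.22 ± 0.19, with overlap for both. Of 34 proteasome genes, whose products degrade tagged proteins, 31 were higher, with a median of 0.16. On the higher side 15 did not overlap (44.1%, against 10.2% of all genes). None passed, but 5 rose without 6% EtOH replicate 1, beside 2.05% of all genes in that fit. The median was 0.10 without control replicate 3. Cops9, a small subunit of the COP9 complex that regulates ubiquitin ligases, rose by 0.52 ± 0.08 (adjusted p = 0.0262, edgeR), from 119, 113 and 99.1 to 149, 161 and 164 CPM.

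Some abundant secretory products of the caput were higher in all 3 treated libraries. Gpx5 stood at 35433, 38487 and 37812 CPM in controls and 40739, 49040 and 47501 CPM after treatment, a difference of 0.30 ± 0.09 (adjusted p = 0.155, edgeR). Adam7, a membrane protein transferred to sperm, stood at 15243, 15693 and 15549 CPM and 18234, 21642 and 20730 CPM, a difference of 0.38 ± 0.08 (adjusted p = 0.0748, edgeR). Neither passed, although in both the lowest treated library was above the highest control. Defb41, a beta-defensin of the proximal duct, was 344, 407 and 511 CPM in controls and 810.2, 1031 and 877 CPM after treatment, without overlap and with a difference of 1.11 ± 0.16 (adjusted p = 0.0792, edgeR). The 27 genes of the caput secretory list had a median of 0.22, with 9 not overlapping on the higher side (33.3%) and none on the lower.

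Pate6, a member of the family of small secreted cysteine-rich proteins, rose by 0.53 ± 0.08 (adjusted p = 0.0262, edgeR), from 262, 266 and 304 to 388, 441 and 374 CPM. Wfdc15b, of the whey acidic protein family of protease inhibitors, rose by 0.42 ± 0.07 (adjusted p = 0.0362, edgeR), from 119.9, 118 and 105 to 148, 160.1 and 150.2 CPM. It was the only 1 of 30 antiproteases to pass, and the list's median was 0.12.

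Other secreted products varied more within the 6% EtOH group than between the groups. Lcn5, a retinoid-binding lipocalin, stood at 4994, 4566 and 4749 CPM in controls and at 6788, 3441 and 2031 CPM in the treated libraries. Replicate 1 was above every control and replicates 2 and 3 were below every control. Serpina1f, a serine protease inhibitor, followed the same order, at 804, 613 and 804 CPM and 987, 388 and 192 CPM. So did Clu, the chaperone clusterin, whose controls were 12155, 12004 and 12615 CPM and treated libraries 13391, 9458 and 6605 CPM. Lcn6, a related lipocalin, ran the other way, at 399.7, 359 and 381 CPM and 359, 559 and 733 CPM.

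Among 93 genes of the 5 lists of secretory and regional genes with a mean of at least 10 CPM, the highest treated library was over 2 times the lowest for 19. In the controls this held for 2. Of those 19, 18 were highest in replicate 1 and 18 lowest in replicate 3, a description made after the values were seen. That order depends on the cut. Below it both orders occurred, with Defb47, Defb18 and Defb20 highest in replicate 3 and Defb12 and Bsph1 highest in replicate 1. The median ratio of highest to lowest was 1.39 in the treated group and 1.16 in the controls. Many caput products are made in zones along the duct. Markers of the proximal end summed to 28283, 31855 and 25509.7 CPM in controls and 30738, 35991 and 39265 CPM in treated libraries, and those of the distal caput to 12321, 14209.6 and 12234 CPM and 13999, 16212 and 17035 CPM. Both sums were highest in replicate 3. The median over the list of log2 CPM minus the gene's mean over the 6 libraries was -0.03, 0.14 and 0.25 in treated replicates 1 to 3 for the proximal markers and 0.22, 0.02 and -0.03 for the distal ones, in opposite orders. The part of the zones in the values above was not tested.

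**Figure D2:**
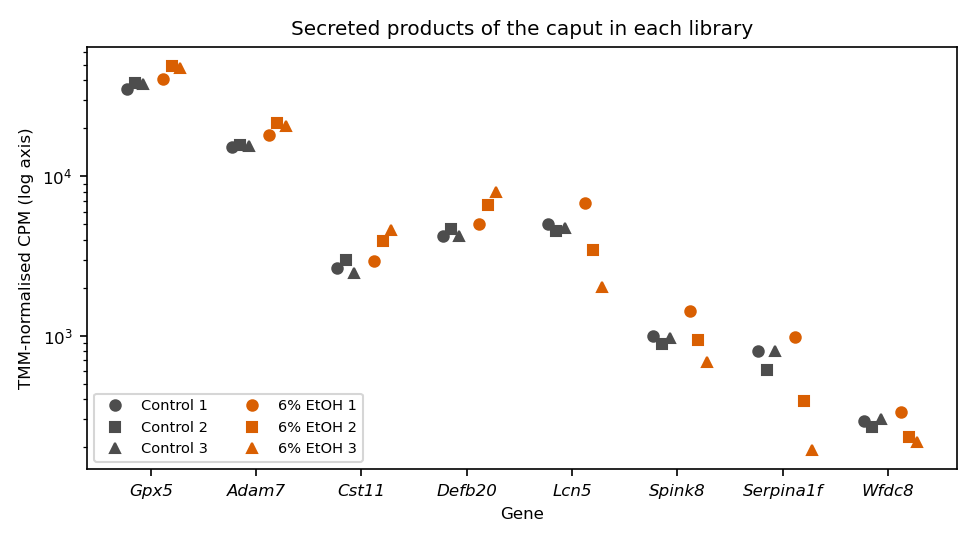
CPM of 8 secreted products in each library on a log axis (grey, control; orange, 6% EtOH; marker shape, replicate). Gpx5 and Adam7 are higher in all 3 treated libraries, while Lcn5, Spink8 and Serpina1f are above the controls in replicate 1 and lowest in replicate 3.

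Calls for the secretory genes depended on replicate 1. It was singled out by its own values, so calls made without it are no separate support. Without it, 6 of 27 caput secretory genes rose and 3 fell, 7 of 28 beta-defensins rose and 1 fell, and 6 of 30 antiproteases rose and 1 fell, beside 2.05% and 2.21% of all genes in that fit. Defb20, an abundant beta-defensin, then rose by 0.74 ± 0.08 (adjusted p = 0.000642, edgeR) against 0.58 ± 0.16 (adjusted p = 0.19, edgeR) with all libraries. Eppin, an inhibitor that coats sperm, then rose by 0.57 ± 0.07 (adjusted p = 0.000693, edgeR). Rnase13, a secreted protein of the ribonuclease family, then fell, by 1.28 ± 0.12 on the log2 scale (adjusted p = 0.00124, edgeR). The sign of the beta-defensin median went with the libraries used, from -0.09 to 0.24 when single libraries were left out.

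Peroxide defence contributed 2 of the 26 genes. Gpx4, a selenoenzyme that reduces lipid hydroperoxides, stood at 134, 133 and 119.7 CPM in controls and 167, 187 and 181 CPM after treatment, without overlap. It rose by 0.47 ± 0.07 (adjusted p = 0.0262, edgeR). Mgst1, a membrane-bound glutathione transferase, stood at 164, 168 and 165 CPM and 201, 222 and 220.4 CPM and rose by 0.37 ± 0.06 (adjusted p = 0.0362, edgeR). Prdx1, a peroxiredoxin, differed by 0.29 ± 0.07 without passing (adjusted p = 0.0968, edgeR). Others of the list differed by less than the spread between libraries, such as catalase, Cat, at -0.05 ± 0.08, and Nqo1, a target of the oxidant sensor Nrf2, at 0.12 ± 0.22. Over the 50 genes, 35 were higher with a median of 0.10. On the higher side 9 did not overlap (18%) and on the lower side 5 (10%), against 10.2% and 9.61% of all genes.

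Of 26 genes that metabolise ethanol and aldehydes none passed, 11 were higher, and the median was -0.03, from -0.07 to 0.04 when single libraries were left out. Without 6% EtOH replicate 1, 2 rose and 1 fell, beside 2.05% and 2.21% of all genes in that fit. Adh1, the main alcohol dehydrogenase, stood at 51.7, 41.7 and 64.9 CPM and 42.4, 50.7 and 47.9 CPM, which overlap. Aldh2, which clears acetaldehyde in mitochondria, stood at 523, 560.1 and 484 CPM and 488, 511 and 529 CPM, a difference of -0.04 ± 0.07. Cyp2e1, the inducible microsomal oxidase, was low and scattered, at 4.69, 1.16 and 6.39 CPM and 1.002, 1.77 and 4.26 CPM.

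The machinery of small RNA biogenesis was on the lower side, while 39 of the 52 lists had a median above 0. Only 7 of 28 genes were higher, 9 did not overlap on the lower side (32.1%, against 9.61% of all genes) and 1 on the higher. None passed, but 2 fell without 6% EtOH replicate 1, beside 2.21% of all genes in that fit. The median was -0.10, from -0.11 to -0.07 when single libraries were left out. Tnrc6b, a scaffold of Argonaute silencing complexes, stood at 219.8, 222 and 227 CPM in controls and 188, 175 and 169.8 CPM after treatment, a difference of -0.33 ± 0.06 (adjusted p = 0.0592, edgeR). Dicer1, which cuts precursor microRNAs, stood at 126, 119.6 and 124 CPM and 115, 105 and 103 CPM, -0.19 ± 0.06 (adjusted p = 0.201, edgeR). Drosha, which acts before it, differed by -0.14 ± 0.08. The angiogenin gene Ang, whose product cuts tRNA, was low, at 4.29, 5.04 and 4.56 CPM and 3.01, 3.88 and 3.67 CPM, without overlap and without passing (adjusted p = 0.446, edgeR). Enzymes that modify tRNA were even, with 27 of 51 higher and a median of 0.02, and the methyltransferase Nsun2 differed by 0.03 ± 0.07.

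Of 44 genes of extracellular vesicles, 30 were higher with a median of 0.04, and none passed. With 6% EtOH replicate 1 left out, 3 rose and 1 fell, beside 2.05% and 2.21% of all genes in that fit. The tetraspanin Cd63, a vesicle membrane protein, stood at 432, 479 and 388 CPM and 500.5, 618 and 646 CPM, a difference of 0.44 ± 0.11 (adjusted p = 0.131, edgeR). Replicate 1 was nearest to the controls. The budding proteins Tsg101 and Pdcd6ip differed by 0.01 ± 0.08 and -0.01 ± 0.05.

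Most members of 3 stress and early response lists were lower, by medians that differed between the lists. Of 25 immediate early genes, 4 were higher, with a median of -0.28 and none past the threshold. On the lower side 7 did not overlap (28.0%, against 9.61% of all genes) and on the higher side 1. Egr1, a factor induced within minutes of a stimulus, stood at 26.8, 36.7 and 48.3 CPM in controls and 24.1, 16.3 and 18.6 CPM after treatment (adjusted p = 0.19, edgeR). Fos, another such factor, was 1.66, 2.27 and 22.1 CPM in controls, with replicate 3 far above the rest, and 1.19, 1.48 and 1.44 CPM in treated libraries. The list's median ran from -0.43 to -0.04 when single libraries were left out. Of 25 heat shock genes 8 were higher, but the median was -0.01. On the lower side 5 did not overlap (20%) and on the higher side 2 (8%), against 9.61% and 10.2% of all genes. The inducible Hspa1b stood at 53.3, 46.9 and 56.1 CPM and 39.5, 39.1 and 34.6 CPM, without overlap (adjusted p = 0.0746, edgeR). Of 31 genes of the integrated stress response 9 were higher (median -0.14, or -0.05 without control replicate 3). Of the 31, 3 did not overlap on the lower side (9.68%, close to the 9.61% of all genes) and 1 on the higher. Atf4, the main factor of that response, differed by 0.14 ± 0.06. No gene of the 3 lists passed. Without 6% EtOH replicate 1, 6 genes of the integrated stress response, 1 heat shock gene and 1 immediate early gene fell. In that fit 2.21% of all genes fell. Interferon genes were even, at 19 of 42 higher and a median of -0.03.

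**Figure D3:**
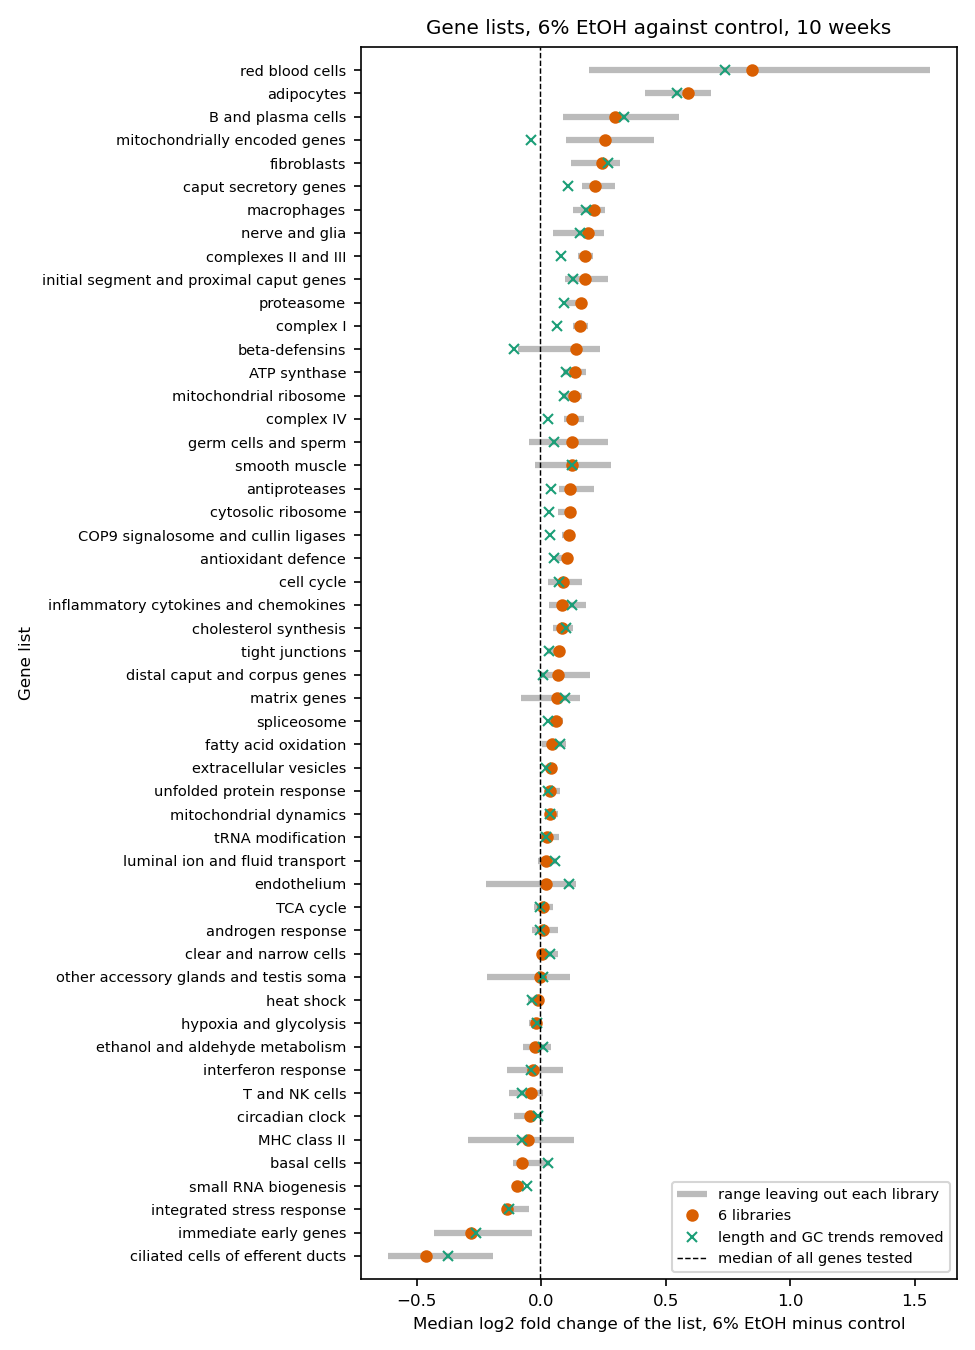
Median log2 fold change of 52 gene lists (orange), the range when single libraries were left out (grey bars), and the median after trends with transcript length and GC content were removed (green crosses), with the median of all genes dashed. The red blood cell list has the widest bar, and the crosses of the respiratory and ribosomal lists lie nearer to 0 than the orange points.

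Markers of other cell types moved with the groups in part. In bulk tissue, fewer cells of a type and less RNA per cell cannot be told apart. Of 18 adipocyte markers 15 were higher, with a median of 0.59, or 0.24 with a minimum count of 50. Their summed level was 694, 708 and 607 CPM in controls and 658, 819 and 873 CPM in treated libraries. Plin1, which coats fat droplets, was scarce, at 0.252, 0 and 0.228 CPM and 0.627, 1.20 and 1.44 CPM. It met the count minimum through the treated libraries alone, so the filter itself favoured a rise. Of 22 macrophage markers 19 were higher (median 0.21, or 0.13 without control replicate 3), with sums of 564, 536 and 527 CPM and 566, 620.5 and 642 CPM. Of the 22, 3 did not overlap on the higher side (13.6%, against 10.2% of all genes) and 0 on the lower. Lyz2, a lysozyme, stood at 36.4, 31.4 and 29.8 CPM and 54.4, 40.3 and 51.9 CPM (adjusted p = 0.0816, edgeR). Of 17 fibroblast markers 14 were higher, with a median of 0.24, from 0.12 to 0.31 when single libraries were left out. Of the 17, 4 did not overlap on the higher side (23.5%, against 10.2% of all genes). Haemoglobin and other red cell markers varied most within a group, at sums of 48.6, 15.4 and 36.9 CPM and 17.9, 55.4 and 137 CPM.

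Ciliated cells line the efferent ducts that enter the caput. Of 35 of their markers 8 were higher, with a median of -0.46, or -0.19 without control replicate 3, and sums of 341, 285 and 409 CPM and 272, 324 and 346 CPM. Of the 35, 2 did not overlap on the lower side (5.71%, against 9.61% of all genes) and 1 on the higher. Foxj1, the factor that specifies cilia, stood at 11.3, 5.98 and 19.6 CPM and 4.14, 4.05 and 7.41 CPM, which overlap. Basal cell, clear cell and endothelial lists had medians of -0.08, 0.00 and 0.02. No marker of the cell types named here passed, although without 6% EtOH replicate 1 3 adipocyte, 1 macrophage, 1 fibroblast, 1 basal cell and 1 ciliated cell marker rose, beside 2.05% of all genes in that fit. The part of the cell makeup in the results was not tested.

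The change went with the length of the transcript and, less evenly between libraries, with its GC content. In the shortest quintile of genes, up to 1573 bases, the median log2 fold change was 0.10, and in the longest, from 4920 bases, it was -0.06, with the quintiles between them in order. Of the 25 rises, 24 have a length, and 20 of them were in the shortest quintile, with a median of 792.5 bases against 2940 for all genes. The 1 fall was in the longest quintile. In the shortest quintile 618 genes did not overlap on the higher side (19.0%) and 109 on the lower, while in the longest 172 were on the higher and 568 (17.5%) on the lower. By GC content, the median was 0.06 in the lowest quintile and -0.04 in the highest, and 17.3% and 5.88% of their genes did not overlap on the higher side. In the lowest GC quintile the median of log2 CPM minus the gene's mean was -0.05, -0.04 and 0.01 in controls. In the 6% EtOH libraries it was 0.06, 0.07 and -0.02, so the groups overlapped by GC content.

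The median of the shortest quintile minus that of the longest was -0.05, -0.04 and -0.14 in the controls and 0.09, 0.06 and 0.09 in the 6% EtOH libraries. All 3 treated libraries, replicate 1 included, lay above all controls, and control replicate 3 was the lowest. Genes with transcripts under 1 kb took 8.68% to 9.46% of counts in controls and 10.2% to 10.6% after treatment. The lists described above differ in this property: the median transcript had 910.0 bases for the cytosolic ribosome, 1046 for complex I and 417.5 for the beta-defensins, but 4445 for small RNA biogenesis. The part of transcript length and GC content in the result was not tested beyond the fit that follows.

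**Figure D4:**
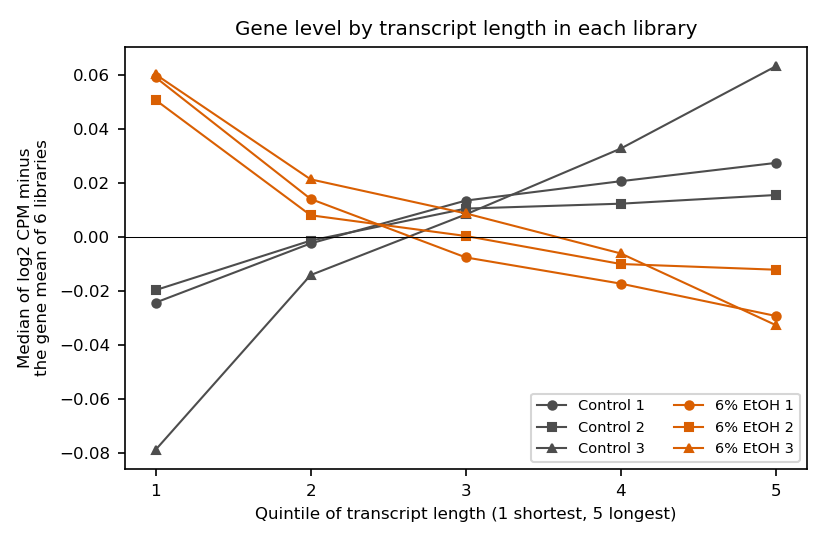
Median over genes of log2 CPM minus the gene's mean over the 6 libraries, by quintile of transcript length, with 1 line per library (grey, control; orange, 6% EtOH). In the shortest quintile the treated lines lie above 0 and the control lines below, and in the longest quintile the order is the opposite.

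After trends with length and GC content were removed together from each library, so that the parts of length and of GC are not separated, 2 genes passed, Rps14 at 0.53 (adjusted p = 0.0170, edgeR) and Atp5md at 0.63 (adjusted p = 0.0434, edgeR). The 25 called genes with a length kept their direction. The median of complex I went from 0.16 to 0.06, that of the cytosolic ribosome from 0.12 to 0.03, and that of complex IV from 0.12 to 0.03. ATP synthase kept 0.10 of 0.13, the mitochondrial ribosome 0.09 of 0.13, and small RNA biogenesis -0.06 of -0.10. The signs of the mitochondrially encoded list and of the beta-defensins turned, to -0.04 and -0.11. U1 has no length in the annotation and was not part of that fit.

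The other rises carry varied roles. Pdcd10, an adaptor of Golgi and junction kinases, rose by 0.66 ± 0.09, from 28.2, 28.3 and 27.2 to 42.0, 48.6 and 41.9 CPM (adjusted p = 0.0234, edgeR). Tmem30a, a partner of the flippases that keep membrane lipids asymmetric, rose by 0.51 ± 0.08 (adjusted p = 0.039, edgeR). Hint1, a nucleotide hydrolase, rose by 0.50 ± 0.08 and S100a1, a calcium-binding protein, by 0.49 ± 0.08 (adjusted p = 0.0316 and 0.039, edgeR). Tmem256 and the unnamed 2410006H16Rik each rose by 0.64 log2 with adjusted p = 0.0262 (edgeR). All 6 had higher levels in each treated library than in any control.

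Cdk5rap2, a centrosome protein that anchors microtubule nucleation, was the only gene to fall. It stood at 52.0, 48.0 and 52.8 CPM in controls and 38.3, 34.6 and 35.8 CPM after 6% EtOH, and the ranges did not overlap. The fall was -0.49 ± 0.08 log2 (adjusted p = 0.0367, edgeR). Fasn, the fatty acid synthase and a long transcript, stood lower without passing, at 636, 629 and 659 CPM and 549.8, 496 and 539.9 CPM (adjusted p = 0.0816, edgeR). Without 6% EtOH replicate 1, 376 genes fell, among them the early response factor Fosl2 by 0.89 ± 0.09 on the log2 scale (adjusted p = 0.000515, edgeR). As stated above, calls of that fit are no separate support.

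The 10% EtOH group was compared with the same 3 controls, so the values of both groups are only set side by side. In 1 fit of the 9 libraries of 10 weeks, U1 was 1.002 with 6% EtOH and 1.13 with 10% EtOH, both against control. Rps14 was 0.62 and 0.83, Cox6c 0.48 and 0.83, Gpx4 0.47 and 0.63, and Cdk5rap2 -0.48 and -0.53. Tmem30a was 0.51 and 1.17, and Slc33a1 0.40 and 0.96. The direct test of 10% minus 6% EtOH, in whose filter, scaling and spread the controls also take part, called 0 of 17154 genes (0%, edgeR), with 1664 at an unadjusted p under 0.05. Its smallest adjusted p was 0.509, so a difference between the concentrations was not shown, and a p that misses the threshold does not show that they act alike.

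In the libraries after cessation most of the 26 genes lay on the other side of 0. However, 0 of the 26 had an unadjusted p under 0.05 (edgeR), so their direction in those libraries was not resolved. These libraries have controls of their own. The 6% EtOH group differed from them in the same direction as at 10 weeks for 2 of the 26, Pate6 and Wfdc15b, and 0 passed (0% of 17029 genes, with 122 at an unadjusted p under 0.05, edgeR). The 25 that had risen had a median of -0.14 there. U1 gave -0.86 ± 0.65 (SE) and Gm22973 -1.002 ± 0.44. The test of the change in effect between the times called 0 of 18172 genes (0%, smallest adjusted p = 0.996, edgeR), with 760 at an unadjusted p under 0.05. Within-group variation was over 2 times that at 10 weeks, which limits what this test could find.

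**Figure D5:**
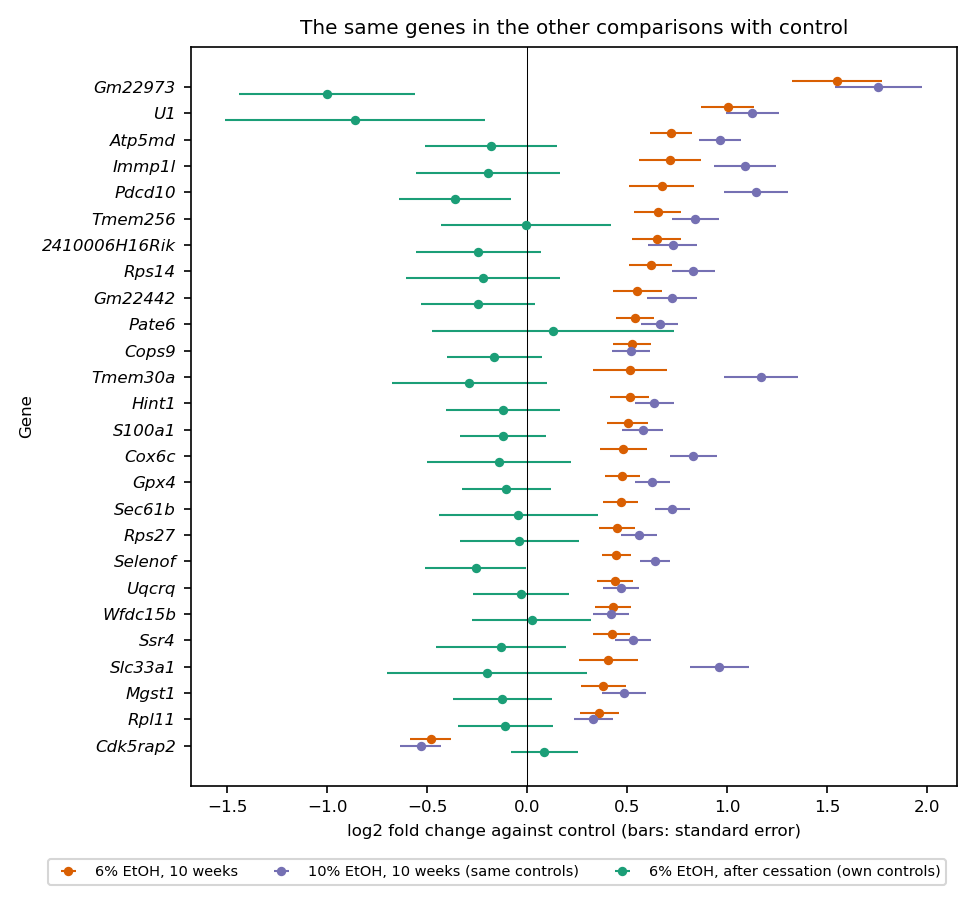
Log2 fold change against control, with SE bars, of the 26 genes for 6% EtOH at 10 weeks (orange), 10% EtOH at 10 weeks against the same controls and from the same fit of 9 libraries (purple) and 6% EtOH after cessation against its own controls (green). The orange and purple points share their controls, and the green bars are wide, with 24 of the 26 green points on the other side of 0 from the orange ones.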

How the data were processed

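Total RNA of caput epididymis was sequenced, and the authors deposited raw counts of reads per gene for each library. Per the submitters' processing notes, reads were processed with Trimmomatic, STAR and featureCounts on GRCm39 (mm39); the sources used here do not give versions, gene annotation, strand or multi-mapping settings. Library groups came from the treatment labels, and the labels give no batch. Replicate numbers follow the order of the libraries in the series within each group and pair no library with another. Counts of the 6 libraries were filtered (filterByExpr, minimum count 10, minimum total 15), scaled by TMM and tested two-sided with edgeR 4.0.16 in R 4.3.3 (robust quasi-likelihood, Benjamini-Hochberg, threshold 0.05), checked on simulated data. Differences between groups were tested in 9 and 12 libraries. The prior count for log2 CPM was 0.5. Lengths, biotypes and sequences are from GENCODE M21 (GRCm38). Lengths and biotypes were matched by symbol, Ensembl identifier or synonym for 98.9% of genes tested. No coordinates were converted. Alternatives were limma 3.58.1, DESeq2 1.42.0, other fits, scaling and filters, removal of length and GC trends, and leaving out libraries. Named genes were those past the threshold, the core genes, passing members and member of smallest p of each list, and the 10 most abundant genes; a few others were named after their values were seen. The comparison, lists and choice of fit were made with earlier results of these data known. Lists are described by counts and medians, and no set test was made.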

Additional observations from a re-analysis of the deposited data

How the results depend on the processing

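The 26 genes that passed became 0 with the spread of the 9 libraries of 10 weeks, 0 with that of all 18, 334 with DESeq2 (242 higher, 92 lower), 12 without robust estimation, 203 with no filter on low counts (149 higher, 54 lower), and 2 with length and GC trends removed. Leaving out each library in turn gave from 1 to 724. limma's voom gave 38, the older quasi-likelihood method 35, DESeq2's size factors in edgeR 28 and a minimum count of 50 also 28. Where more genes passed, the share of rises moved from 96.2% to 72.5% (DESeq2), 73.4% (no filter) and 48.1% (without 6% EtOH replicate 1). The 415 values of the 26 genes over these settings all kept their direction, and 201 no longer passed. The 26 were selected in these same 6 libraries, where their groups did not overlap. A reversed direction was therefore hardly possible, and the kept direction is no separate support. The difference between the shortest and longest quintile of transcripts, 0.165, became 0.037 with the trends removed, by the construction of that setting. The test of 10% minus 6% EtOH called 1 gene, Tiparp, with no filter and 0 under the other settings tried. Apart from these, the cause of the differences was not tested. No paired analysis was possible because the labels used here name no pairs of libraries between groups. With 3 libraries a group, small changes of scarce transcripts could not be detected.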
